A study of Bos taurus with 8 samples.

Results

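Calcium for the growing skeleton crosses the placenta through a chain of proteins, and 8 genes of that chain were followed across 8 bovine microarrays. They code for the apical entry channels TRPV6 and TRPV5, the cytosolic carriers S100G (calbindin-D9k) and CALB1 (calbindin-D28k), the plasma membrane calcium pumps ATP2B1 and ATP2B4, the hormone PTHLH (parathyroid hormone-related protein) and the vitamin D receptor VDR. Their probes were taken from the array by gene name, or by the symbol of the accession a probe is listed under. This gave 20 probes with 18 different sequences for the 8 genes, out of 51282 probes and 16910 named genes on the array.

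The arrays are 1-colour 60-mer arrays hybridised with Cy3-labelled RNA, 4 labelled non-pregnant and 4 labelled pregnant. Every sample is labelled as fetal cotyledon, the fetal side of the placentome, the button-like structure in which ruminant mother and fetus exchange nutrients, and as female. The sample descriptions place the first group before and the second after pregnancy. The protocol text, which is the same for all 8 samples, says that uteri of pregnant buffalo came from a slaughterhouse, whereas the organism is labelled Bos taurus. The labels give no stage of gestation, treatment or animal, so the p-values below measure only the spread between these samples, which may be technical. All 8 arrays lie on the same slide and share 1 scan. The groups occupy different rows of that slide, so slide row and group cannot be told apart.

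In the epithelium that faces the mother, calcium enters a trophoblast cell down its gradient through TRPV6 or TRPV5, is carried across the cytosol bound to a calbindin, and is pumped out towards the fetal side by ATP2B pumps. The calbindins also keep free calcium low inside the channel-bearing cell, which protects the cell and keeps the channels open. PTHLH is made by fetal and uterine tissues and is known to stimulate placental calcium transfer, and VDR mediates the action of vitamin D on TRPV6 and S100G in gut and kidney. In ruminants S100G is known both from trophoblast and from uterine gland epithelium, and TRPV6 and TRPV5 lie side by side in the genome.

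The values are log2 signals relative to the 75th percentile of the same array. A value of 0 therefore lies at that percentile, and a difference of 1 is a 2-fold change. A probe was tested where 4 or more of the 8 arrays had it well above background by the scanner software's own flag, and each gene is represented by its brightest tested probe or, with none, by its brightest probe. Because probes differ in how strongly they bind, levels are compared between arrays and not between genes.

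Sequences behind the results for the entry channel, the pumps, the hormone and the receptor are those of the following probes, as deposited, from 5′ to 3′. For TRPV6 the capitals mark the 56 bases that its probe shares with a second spot, listed under a transcript accession with no symbol here. The other probes are shown in lower case because no stretch is singled out, and they are the second probes of ATP2B1, ATP2B4 and PTHLH, of which those of the pumps disagree in the call with the brighter probes, and the 60 bases that both VDR probes share. Positions below are those of the array's own annotation on the Btau_3.1 build, and 3 of the 20 probes have none in the file. A span longer than the 60 bases of a probe is printed as the file lists it. The sources used here do not say whether a position is exonic, intronic or in a UTR.
TRPV6 probe A_73_112347: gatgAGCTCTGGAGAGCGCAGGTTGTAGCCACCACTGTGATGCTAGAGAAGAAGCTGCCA
TRPV6 second spot: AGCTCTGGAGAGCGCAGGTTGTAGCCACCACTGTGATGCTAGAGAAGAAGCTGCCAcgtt
ATP2B1 probe A_73_P332411: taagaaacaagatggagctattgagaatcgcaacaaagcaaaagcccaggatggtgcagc
ATP2B4 probe A_73_P071476: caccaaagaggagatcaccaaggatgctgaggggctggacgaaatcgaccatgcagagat
PTHLH probe A_73_P262171: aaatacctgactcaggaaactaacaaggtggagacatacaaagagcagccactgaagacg
VDR, both probes: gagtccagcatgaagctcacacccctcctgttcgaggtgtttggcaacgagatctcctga

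The tissue labels were checked against marker genes before the calcium genes were read. Of 13 tested trophoblast markers 11 were lower in the arrays labelled pregnant and 1, PTGS2, was higher. The log2 of their summed signal ranged from 8.99 to 9.84 under the non-pregnant label and from 5.23 to 5.73 under the pregnant label. CYP11A1, CDX2 and PLAC1 were not well above background on any array labelled pregnant. All 7 erythroid markers were lower there, while 5 of 7 endometrial stroma markers, 5 of 6 smooth muscle markers and 5 of 6 leukocyte markers were higher. Endometrial epithelium gave 2 higher and 4 lower of 9 tested markers, and endothelium 1 higher and 1 lower of 5. The level of the trophoblast markers goes against the labels, and all directions below are stated by label. In whole tissue, fewer cells of a type and less RNA per cell cannot be told apart. Array 4 labelled pregnant stood apart from the other 3 of its group: it lay above all of them for 32.3% of the 13196 tested genes and below all of them for 43.4%.

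Across the array 62.8% of the 13196 tested genes differed between the labels (limma at an adjusted p of 0.05). By direction, 29.9% were higher where the label is pregnant and 32.9% were lower. Against that background 5 of the 8 calcium genes had a tested probe, and 2 of these 5 were called: PTHLH was higher and S100G lower in the arrays labelled pregnant. ATP2B1, ATP2B4 and VDR were not called. The groups of arrays did not overlap for 60.3% of all tested genes and for the same 2 of the 5 tested members. The median difference was 0.23 over the 5 members and -0.03 over all genes. TRPV6, TRPV5 and CALB1 had no tested probe and are given as values. Of the 20 probes 10 were tested, and 5 were not well above background on any array.

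**Figure D1:**
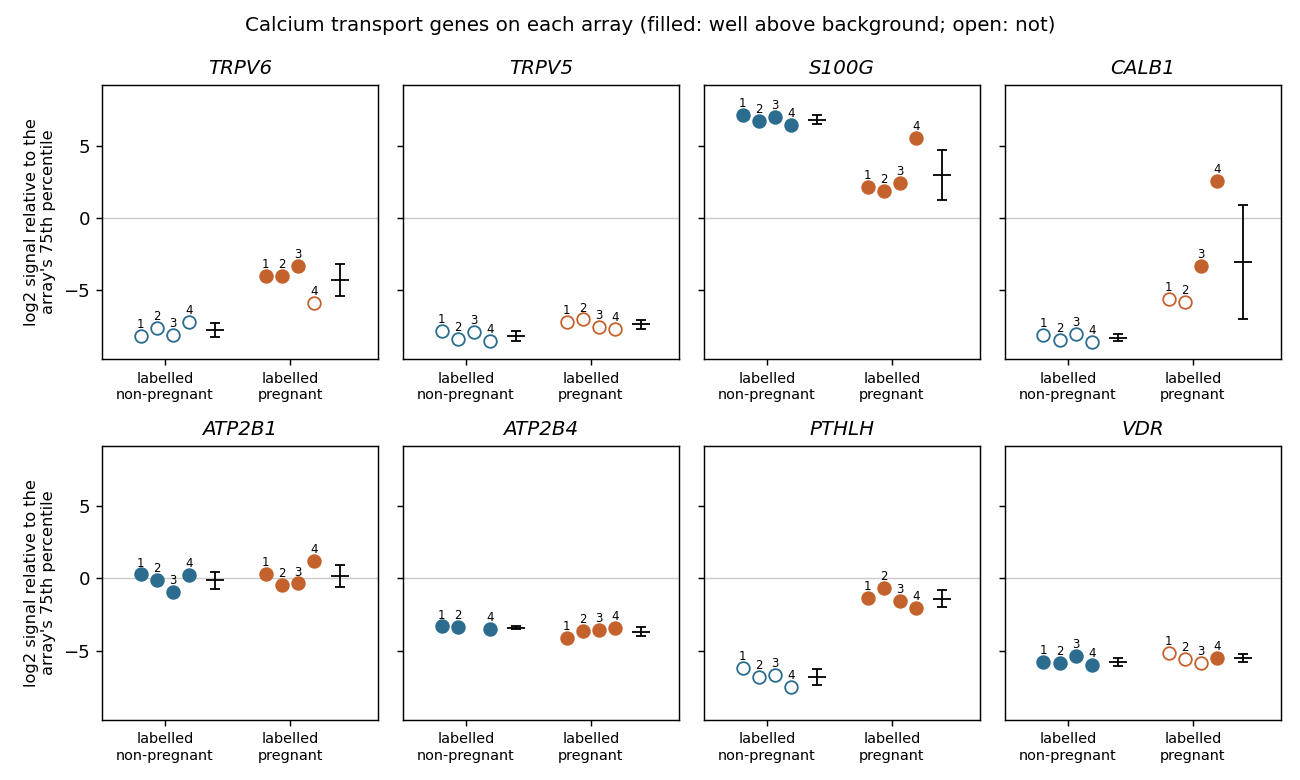
Each panel shows 1 of the 8 genes, with the scaled log2 signal (0 is the 75th percentile of the array) on the vertical axis, 1 point per array numbered by replicate, and the mean with its SD beside each group. Filled points are well above background and open points are not. S100G is lower and PTHLH higher in the arrays labelled pregnant, and array 4 labelled pregnant stands far above the rest of its group for S100G and CALB1.

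TRPV6 is the high-affinity calcium channel through which calcium enters the trophoblast, and it was well above background only in arrays labelled pregnant. Its representative probe (A_73_112347, chr4:110137030-110138396) read -8.21, -7.62, -8.11 and -7.21 in the arrays labelled non-pregnant and -4.05, -4.06, -3.35 and -5.91 in those labelled pregnant. The groups did not overlap, but the probe was well above background only on arrays 1 to 3 labelled pregnant, and array 4 was the lowest of its group. The means were -7.79 ± 0.46 and -4.34 ± 1.10 (SD, n = 4 each). Where every array of 1 group is below background the fold is a lower bound, taken against the lowest signal that was well above background on each array, or the probe's own signal if higher; such bounds hold for the scanner's own background correction. The other group enters with its measured signals, and where some of these are not well above background the value is not a strict bound. On this measure TRPV6 was 7.09-fold higher in the arrays labelled pregnant with array 4 included. Without array 4 it was at least 10.2-fold higher. The measured difference was 3.44, taken against a group below background, so no p-value is given. With normexp background correction in place of the scanner's, the difference was 1.19. The 5 probes of the 8 genes that were not well above background on any array also read higher under the pregnant label, by 0.46 to 1.32. Differences of that size thus occur at background level.

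The second spot, which carries 56 of the same bases, gave the same picture. It read -8.05, -7.91, -8.09 and -7.81 in the arrays labelled non-pregnant and -4.13, -3.80, -3.38 and -7.23 in those labelled pregnant. Arrays 1 to 3 labelled pregnant were again the only arrays well above background, and array 4 lay near the non-pregnant arrays. On the same measure this spot was 6.18-fold higher, again not a strict bound because array 4 was not well above background. The other TRPV6 probe (A_73_P402746, chr4:110152777-110152836) was not well above background on any array. The readout of TRPV6 therefore rests on 1 stretch of sequence.

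TRPV5, the paralogous channel best known from the kidney, was not well above background on any array with either probe. Its probes lie at chr4:110179661-110181273 and chr4:110170564-110170623, and 17727 bases separate the nearest TRPV6 and TRPV5 probes. The first probe averaged -8.18 ± 0.35 and -7.39 ± 0.31 (SD, n = 4 each) in the arrays labelled non-pregnant and pregnant, both within the background range, so no fold is given. A further spot with the same 60 bases was also below background throughout. The difference between labels was 2.65 larger for TRPV6 than for TRPV5, taken within each array (exact permutation test, two-sided, n = 4 against 4, p = 0.0286, adjusted over 3 pairs 0.0429). This is the smallest p that 4 against 4 arrays can give. TRPV5 enters it at background level on every array, and TRPV6 on all arrays labelled non-pregnant. The contrast thus largely restates the TRPV6 values above and is no separate support for them. With normexp background correction it was 0.56.

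S100G, the small calbindin that ferries calcium through the cytosol of absorbing epithelia, was well above background on every array and lower in those labelled pregnant. Its probe A_73_P049206 (chrUn.004.79:171457-171516) read 7.12, 6.71, 6.95 and 6.42 in the arrays labelled non-pregnant. In the arrays labelled pregnant it read 2.10, 1.83, 2.38 and 5.52. All 4 arrays labelled non-pregnant were higher than all labelled pregnant, and array 4 labelled pregnant came closest to them. The difference was -3.84 (SE 0.74), a signal 14.4-fold lower in the arrays labelled pregnant, with an adjusted p of 0.00185 (limma). Without array 4 the difference was -4.70 with an adjusted p of 2.07e-06.

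A second S100G probe, A_73_112860, carries the same 60 bases and gave a difference of -3.85, so the pair shares its sequence and is not a separate check on the gene. The remaining S100G probe, A_73_P116396, has other bases and no position in the file, and it was not well above background on any array. S100G thus also rests on 1 sequence. Its direction was that of 11 of the 13 tested trophoblast markers, given above, and their part in the result was not tested. Of the 9 tested endometrial epithelium markers 4 were lower and 2 higher in the arrays labelled pregnant, and array 4 lay above the other 3 arrays for 4 of them and below for 2; their part was not tested either.

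CALB1, the larger calbindin, ran opposite to S100G and varied most within a group. Its brightest probe (A_73_P377681, chr14:72335307-72335366) read -8.14, -8.45, -8.04 and -8.62 in the arrays labelled non-pregnant and -5.66, -5.84, -3.36 and 2.55 in those labelled pregnant. All 4 arrays labelled pregnant were higher, but only arrays 3 and 4 were well above background, and array 4 stood far above array 3. On the measure given for TRPV6, CALB1 was 18.2-fold higher in the arrays labelled pregnant, and 4.96-fold higher when array 4 was left out. Neither is a strict lower bound, because arrays 1 and 2 enter with signals not well above background. The measured difference was 5.24, also taken against a group below background, so no p-value is given. With normexp background correction the difference was 2.60.

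The other CALB1 probes repeated the order of the arrays in part. A_73_P286566 (chr14:72334536-72334595) read -5.05, -7.01, -3.90 and 2.03 in the arrays labelled pregnant and was below background in all labelled non-pregnant. A_73_104251 (chr14:72335459-72335518) read -7.45, -7.27, -7.79 and -0.30 in the arrays labelled pregnant and was well above background only on array 4. All 3 CALB1 probes were thus highest on array 4. The difference between labels for S100G minus that for CALB1 was -9.08, with CALB1 below background in 1 group. The exact permutation test (two-sided, n = 4 against 4) gave p = 0.0286, adjusted over 3 pairs 0.0429, again the smallest p the design allows. Neither gene's groups overlapped, and the 2 genes ran in opposite directions. This p was therefore fixed by the values above and adds no support.

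**Figure D2:**
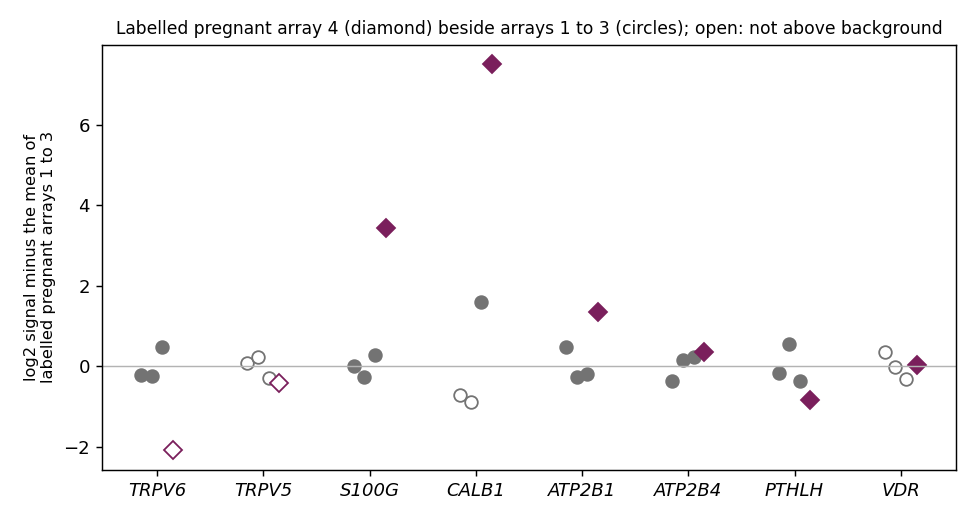
For each gene the points show the log2 signal of the 4 arrays labelled pregnant minus the mean of arrays 1 to 3, with array 4 as a diamond and open symbols where the probe was not well above background. Array 4 lies 7.51 above the mean of the others for CALB1 and 3.42 above for S100G, and 2.09 below (-2.09) for TRPV6.

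Array 4 labelled pregnant was unusual for the calbindins even beside all tested genes. CALB1 lay 7.51 above the mean of the other 3 arrays, a distance that 1 of the 13196 tested genes reached. CALB1 is itself untested, and arrays 1 and 2 were not well above background for it. Its distance is thus taken partly from background, and the ranking leaves out other untested genes. S100G lay 3.42 above that mean, a distance that 1.55% of tested genes reached, and ATP2B1 lay 1.35 above it (13.3%). TRPV6, also untested, was displaced downward by -2.09 (5.59%) and PTHLH by -0.84 (25.9%), whereas ATP2B4 (0.35) and VDR (0.03) lay near the others. In that array 4 of the 13 tested trophoblast markers were above the other 3 arrays and 6 below, all 7 tested endometrial stroma markers were below, and their part in these values was not tested.

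ATP2B1 is the plasma membrane pump found in nearly all cells and the main exit route for calcium towards the fetus. Its brighter probe (A_73_P033766, chr5:22130102-22130161) read 0.27, -0.10, -0.97 and 0.22 in the arrays labelled non-pregnant and 0.30, -0.43, -0.35 and 1.19 in those labelled pregnant. The groups overlapped, and array 4 labelled pregnant was the highest of all. The difference of 0.32 (SE 0.42, adjusted p 0.525, limma) did not exceed the spread between arrays, and without array 4 it was -0.01. The second probe (A_73_P332411, chr5:22174138-22174920) read -2.10, -3.01, -2.92 and -4.01 against -1.23, -0.88, -1.22 and -1.81. On this probe every array labelled pregnant was higher, by 1.73 (SE 0.39, adjusted p 0.00440, limma). The 2 probes of ATP2B1 therefore disagree in the call but not in the direction of their means.

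ATP2B4, a pump of the same family that is also tied to signalling at the membrane, was not called on its brightest probe. Its brightest probe (A_73_P443406, chr16:447951-448010) read -3.33, -3.39 and -3.51 in arrays 1, 2 and 4 labelled non-pregnant, and its spot on array 3 was left out as an outlier flagged by the scanner software. It read -4.16, -3.63, -3.57 and -3.44 in the arrays labelled pregnant. The groups overlapped, and array 1 labelled pregnant was the lowest. The difference was -0.29 (SE 0.23, adjusted p 0.304, limma, n = 3 against 4), and -1.12 (adjusted p 0.203) in the deposited table, which keeps the outlier spot.

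The second ATP2B4 probe (A_73_P071476, chr16:476815-476874) read -4.50, -4.39, -4.26 and -3.78 in the arrays labelled non-pregnant and -5.38, -5.35, -5.10 and -5.04 in those labelled pregnant. Every array labelled pregnant was lower on it, and only arrays 3 and 4 of them were well above background. Its difference was -0.99 (SE 0.21, adjusted p 0.00331, limma). Of the remaining probes, 1 was well above background on 3 of the 8 arrays and 1 (chr16:486866-486925) on none, and neither was tested. Between the pumps, the difference between labels was 0.34 larger for ATP2B1 than for ATP2B4 on their brightest probes (exact permutation test, two-sided, n = 4 against 3, p = 0.571, the smallest possible p being 0.0571).

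**Figure D3:**
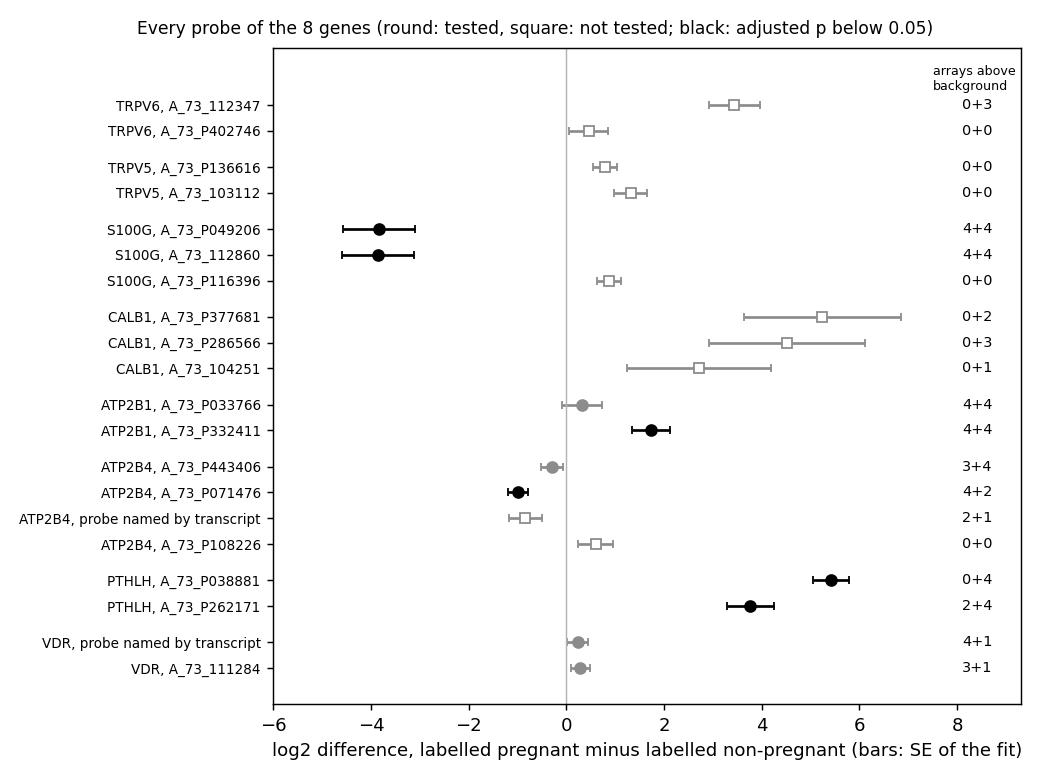
Each row is 1 of the 20 probes of the 8 genes, and the horizontal axis is the log2 difference between the arrays labelled pregnant and labelled non-pregnant, with the SE of the fit as bars (for probes not tested, of the fit without the filter on dim probes). The figures at the right count the arrays well above background as non-pregnant + pregnant labels. PTHLH has both probes far to the right, whereas 1 of the 2 probes of ATP2B1 and of the tested ATP2B4 pair passes the threshold.

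PTHLH was higher in the arrays labelled pregnant on both of its probes. The hormone acts through the receptor it shares with parathyroid hormone, PTH1R, and is known from uterine muscle and stroma as well as from the placenta. Its representative probe (A_73_P038881, chr5:88048451-88048510) read -6.19, -6.84, -6.69 and -7.56 in the arrays labelled non-pregnant and -1.35, -0.65, -1.57 and -2.03 in those labelled pregnant. No array labelled non-pregnant was well above background and all 4 labelled pregnant were, with a wide gap between the groups. PTHLH was at least 42.8-fold higher in the arrays labelled pregnant, with an adjusted p of 4.04e-06 (limma, fitted difference 5.42, SE 0.36). The probe passed the filter on dim probes through the arrays labelled pregnant alone, so the fitted difference is taken against a group below background. With normexp background correction in place of the scanner's, the difference was 3.02 and the call stood.

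The second PTHLH probe (A_73_P262171, chr5:88043952-88044011) read -5.86, -5.87, -7.15 and -7.47 against -2.83, -1.88, -3.00 and -3.56. The groups again did not overlap, and array 4 was the lowest of the arrays labelled pregnant on both probes. The difference was 3.77 (SE 0.48, adjusted p 0.000156, limma). PTHLH ran in the direction of 5 of the 7 tested endometrial stroma markers, 5 of the 6 smooth muscle markers and 5 of the 6 leukocyte markers. The log2 of the summed signal of the stroma markers ranged from 6.13 to 7.02 in the arrays labelled non-pregnant and from 7.88 to 8.48 in those labelled pregnant. The part of these marker sets in the result was not tested.

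VDR, the nuclear receptor for active vitamin D, did not differ beyond the spread between arrays. Its representative probe, in 2 spots, read -5.80, -5.87, -5.40 and -6.02 in the arrays labelled non-pregnant and -5.19, -5.57, -5.87 and -5.51 in those labelled pregnant. The groups overlapped, and all arrays labelled non-pregnant but only array 4 labelled pregnant were well above background. The difference was 0.23 (SE 0.22, adjusted p 0.376, limma). The second probe has the same 60 bases (chr5:35622970-35623029) and gave 0.29 (SE 0.19, adjusted p 0.226, limma). The sign of this difference depends on the scaling, being -0.29 after quantile normalization and -0.15 after median scaling.

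The genes most like each tested member over the arrays were sought by the root mean square distance of centred log2 values, with no test. SPC24 (0.311) and BICDL2 (0.341) lay closest to S100G over the 8 arrays. Both were higher on array 4 than on the other arrays labelled pregnant, by 3.50 and 2.76. That is part of the likeness by which they were chosen and not a separate result. PRF1 (0.236) and LOC513659 (0.250) lay closest to PTHLH. CYFIP1 (0.250) and TMTC1 (0.251) lay closest to ATP2B1, and MIR874 (0.107) and GLOD4 (0.119) to VDR. Over 7 arrays VPS50 (0.0841) and PYM1 (0.109) lay closest to ATP2B4.

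A wider list of calcium-handling genes, 87 in all, was read in the same fit to place the 8 genes in their pathway. Of these 80 were on the array by name and 60 were tested, of which 19 were higher, 26 lower and 15 not called. That is 45 called of 60, beside 62.8% of all genes, with a median difference of -0.15. Without array 4 labelled pregnant, 22 genes of the list were higher and 25 lower. Of all tested genes 29.9% were higher and 32.9% lower. The counts by role below cover few genes each, stand beside these shares and were not tested as sets. STC2, GPRC6A, KL, LRP2, OCM, RYR3 and ORAI2 were not analysed here.

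Of the ligands 2 of 3 tested were higher, and of the receptors 1 of 4 was higher and 1 lower. PTH1R, the receptor that PTHLH binds, averaged -4.44 ± 0.60 and -0.50 ± 0.40 in the arrays labelled non-pregnant and pregnant (SD, n = 4 each), a difference of 3.94 (SE 0.33, adjusted p 1.43e-05, limma). PTHLH and its receptor were thus both higher in the arrays labelled pregnant. STC1, a hormone that lowers calcium uptake in fish gills and is made in many mammalian tissues, was higher by 5.18 (SE 0.50) and the growth factor IGF1 by 1.88 (SE 0.52), the latter not called without scaling of the arrays (adjusted p 0.0728). RXRA, the partner of VDR on DNA, was lower (-0.61, SE 0.17) but not called with the percentile taken over detected probes (adjusted p 0.0555) or with normexp background correction (adjusted p 0.256). Neither parathyroid hormone (PTH) nor calcitonin (CALCA) nor the calcitonin receptor (CALCR) was well above background on any array, and the calcium-sensing receptor CASR and PTH2R were so on 1 array each.

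Of the genes that make and break down vitamin D, CYP2R1 and CYP27A1, both hydroxylases of the first activation step, were higher in the arrays labelled pregnant. CYP2R1 was at least 6.41-fold higher, with a difference of 3.82 (SE 0.19, adjusted p 8.61e-07, limma), and CYP27A1 was higher by 2.32 (SE 0.34). CYP2R1 passed the filter on dim probes through the arrays labelled pregnant alone, so its fitted difference is taken against a group below background. PDIA3, a chaperone that also binds vitamin D at the membrane, was lower (-0.99, SE 0.34). CYP27B1, which makes the active hormone, was not well above background on any array. CYP24A1, which breaks it down, was well above background on 3 arrays labelled non-pregnant and on none labelled pregnant. On the measure given for TRPV6 it was 2.40-fold lower, not a strict bound because not all arrays labelled non-pregnant were well above background. The carrier GC was untested, at -2.49 on array 4 labelled pregnant against a mean of -6.80 on the other 3, and the uptake receptor CUBN was untested too.

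The proteins that carry TRPV channels to the membrane or hold them there moved in both directions, 2 higher and 3 lower of 8 tested. RAB11A, which recycles the channels to the surface, was lower (-3.09, SE 0.28, adjusted p 2.15e-05, limma). PDZK1, a scaffold of apical membranes, was lower (-4.50, SE 1.34) but read 1.05 on array 4 labelled pregnant against -5.22 on average in the other 3; without array 4 its difference was -6.07. BSPRY, which binds TRPV5 and TRPV6, was lower (-1.18, SE 0.33) and the scaffold NHERF2 higher (2.31, SE 0.25). S100A10 (-0.08) and ANXA2 (-0.08), the pair that brings the channels to the membrane, were not called, and PDZD3 was not well above background on any array.

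Among the other buffers CALB2 (calretinin) was lower (-4.92, SE 0.88) and PVALB (parvalbumin) higher (3.97, SE 0.85) in the arrays labelled pregnant. On array 4 CALB2 read -7.99 and PVALB -5.24, the lowest of their group in both cases. The probe of CALM, listed here as CALM2, was lower (-1.75, SE 0.37) and CALM3 higher (1.34, SE 0.31), so the near-identical calmodulin genes split. Of the other export proteins SLC24A5, a potassium-dependent sodium-calcium exchanger, was at least 9.11-fold lower (adjusted p 2.22e-06, limma), ATP2B2 was lower (-2.67, SE 0.81), SLC24A1 was at least 1.65-fold lower (adjusted p 0.00166, limma; a difference of 0.06 with normexp background correction) and the sodium-calcium exchanger SLC8A1 was higher (1.86, SE 0.42). SLC24A5 and SLC24A1 passed the filter through the arrays labelled non-pregnant alone, so their p-values are taken against a group below background. ATP2B2 lost its call without array 3 labelled non-pregnant (adjusted p 0.0520) or array 2 labelled pregnant (adjusted p 0.0507). ATP2B3, SLC8A3, SLC24A2 and SLC24A3 were not well above background on any array, and SLC24A4 was so on 1.

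**Figure D4:**
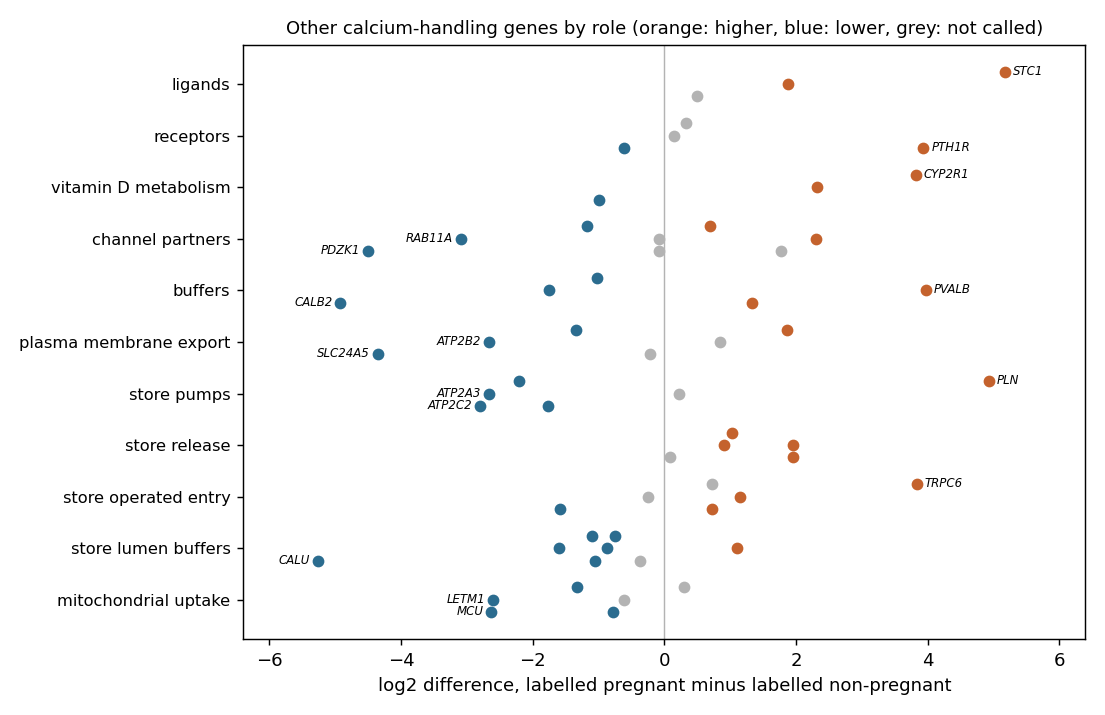
Each point is 1 of the 60 tested genes of the wider calcium list, in a row for its role, and the horizontal axis is the log2 difference between the arrays labelled pregnant and labelled non-pregnant; names are given for the largest differences. Store release genes lie at or to the right of 0, whereas 4 of 6 genes of the store pumps and their regulators, 6 of 8 store lumen buffers and 4 of 6 mitochondrial genes are lower. Of all tested genes 29.9% are higher and 32.9% lower.

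Of the 6 tested genes of the store pumps and their regulators 4 were lower and 1 higher. The lower ones included ATP2A2, the housekeeping pump of the endoplasmic reticulum (-2.21, SE 0.20, adjusted p 2.45e-05, limma), ATP2A3 (-2.66, SE 0.46) and the Golgi pump ATP2C2 (-2.80, SE 0.33). PLN, the inhibitor of ATP2A2 in muscle, was at least 15.3-fold higher, and the related SLN was not well above background on any array. Of 5 tested release channels 4 were higher and none was lower: ITPR3 (1.95, SE 0.45), RYR2 (1.95, SE 0.32), ITPR1 (1.03, SE 0.26) and ITPR2 (0.90, SE 0.26). Without scaling of the arrays ITPR1 (0.54, adjusted p 0.179) and ITPR2 (0.42, adjusted p 0.400) were not called.

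Store-operated entry, by which emptied stores refill, gave 3 genes higher and 1 lower of 6 tested. TRPC6 was higher by 3.84 (SE 0.36), the sensor STIM1 by 1.14 (SE 0.18; adjusted p 0.0539 without scaling) and the channel ORAI3 by 0.73 (SE 0.24), while the sensor STIM2 was lower (-1.59, SE 0.18). ORAI3 was not called after median scaling (0.34, adjusted p 0.293) or without scaling (0.24, adjusted p 0.488). It also lost its call, at differences of 0.62 to 0.74, when any single array other than array 3 labelled non-pregnant or array 4 labelled pregnant was left out (adjusted p up to 0.0857).

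Of 8 tested buffers of the store lumen 6 were lower and 1 higher. CALU was lower by the most (-5.27, SE 0.25, adjusted p 7.31e-07, limma), followed by HSPA5 (-1.60, SE 0.29) and RCN1 (-1.10, SE 0.32), and RCN3 was higher (1.11, SE 0.24; adjusted p 0.0939 without scaling). RCN1 (adjusted p 0.0653) and, of the mitochondrial genes below, MICU2 (adjusted p 0.0578) were not called after quantile normalization. CASQ1 and CASQ2, the buffers of muscle, were not well above background on any array. Mitochondrial uptake gave 4 lower and none higher of 6 tested: the pore MCU (-2.63, SE 0.25), LETM1 (-2.60, SE 0.27), MCUR1 (-1.33, SE 0.45) and MICU2 (-0.77, SE 0.18), with MICU3 above background on 2 arrays and untested. PDIA3 and MCUR1 lay near the threshold. PDIA3 lost its call in 4 of the 8 fits that leave out 1 array, the smallest difference among these being -0.73 and adjusted p reaching 0.0815, with the percentile over detected probes (-0.83, adjusted p 0.0664) and after quantile normalization (-0.61, adjusted p 0.161). MCUR1 lost it in 5 of the 8, at differences of -1.30 to -1.13 and adjusted p up to 0.0790, and with the percentile over detected probes (-1.16, adjusted p 0.0507).

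Scaling shifted the whole array and with it the balance of directions. Of all genes called, 47.6% were higher in the arrays labelled pregnant, against 34.9% after median scaling and 31.7% without scaling, and the median difference of all genes moved from -0.03 to -0.41 and -0.51. S100G and PTHLH kept their direction and call under every scaling tried, namely median scaling, the percentile over detected probes, quantile normalization and no scaling.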

How the data were processed

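The authors hybridised 8 samples to 1-colour Agilent bovine arrays and deposited the scanner output, with processed intensities already corrected for background by Agilent Feature Extraction 11.5.1.1 (protocol GE1_1105_Oct12, per the file headers). A deposited table of log2 values correlated with the scanner values at 0.999 or above on each array and served as an alternative; its column medians lay between -4.21 and -3.56, and how it was centred is not stated.

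Control spots (1319) and the 5 to 31 spots per array flagged as outliers were left out, and no spot was saturated. Spots of a probe were averaged, the intensity was scaled to each array's 75th percentile and log2 was taken. Probes were named through the RefSeq gene table of ARS-UCD2.0, used for names only: 28112 by accession, 1770 by another accession, 5520 by symbol and 149 by synonym, while 15726 kept the file's name and 5 matched several genes and were not named.

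The 34627 probes flagged as well above background on 4 or more of 8 arrays were fitted with limma 3.58.1 in R 4.3.3 (lmFit, eBayes) with no covariate, Benjamini-Hochberg adjusted over all tested probes, at 0.05. Differences within gene pairs used exact permutation tests (scipy 1.17.1). The fit was tested on simulated data. Signal was well above background on 60.6% to 69.5% of probes per array; the number of arrays limits the precision. Between arrays, correlations were 0.943 to 0.989 within groups and 0.736 to 0.783 between them. The members and gene lists were chosen with earlier results of these data known. Named genes are all members, up to 4 genes with the largest differences among those called in each role of the wider list, genes of it without a tested probe, and the 2 genes most like each tested member; S100A10, ANXA2 and the markers named were chosen after their values were seen. Of the genes without a tested probe, 1 is not reported here.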

Additional observations from a re-analysis of the deposited data

Results flagged for a closer look

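Within groups of 4 arrays, a gap between the extreme array and its nearest neighbour that, as a share of the group's range, exceeded Dixon's critical value was found in 10 of 88 groups of the calcium genes named here, where chance gives about 5%. No such count over all tested genes is given here, so the 10 are not read as particular to the calcium genes. Over all tested genes array 4 labelled pregnant lay above the other 3 arrays of its group for 32.3% and below them for 43.4%. It was the extreme array in 8 of the 10. It was the highest of its group for S100G (5.52, the others 1.83 to 2.38), STC1 (3.75, the others 2.19 to 2.30), CYP27A1 (5.34, the others 3.90 to 4.08), PDZK1 (1.05, the others -5.38 to -5.03), MCUR1 (1.12, the others -0.96 to -0.71) and MICU2 (3.15, the others 2.87 to 2.89). It was the lowest for CALM3 (2.03, the others 3.09 to 3.21) and TRPC6 (-1.50, the others -0.23 to 0.01). The other 2 were CALU on array 2 labelled pregnant (-2.57, the others -3.14 to -3.05) and PVALB on array 1 labelled non-pregnant (-5.75, the others -6.49 to -6.38).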

How the results depend on the processing

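S100G and PTHLH were called in the same direction under every alternative in which they were tested. With the filter requiring all 8 arrays, PTHLH was not tested. Then 1 of 2 tested members was called, 0 higher, beside 6912 of 11122 genes. Without a filter on dim probes 5 of 8 members were called, 4 of them higher, beside 9739 of 16910 genes, 5393 of them higher. The added members are below background in at least 1 group. Averaging a gene's tested probes called 4 of 5 members (2 higher, 2 lower), beside 8435 of 13196 genes. This added ATP2B1 (1.02, adjusted p 0.00663, limma) and ATP2B4 (-0.53, adjusted p 0.0388, limma). The second probe alone gave 1.73 and -0.99. With averaged probes the ATP2B1 minus ATP2B4 contrast was 1.56 (exact permutation test, adjusted p 0.0286). With normexp background correction TRPV6 gave 1.19 in place of 3.44, CALB1 2.60 in place of 5.24 and PTHLH 3.02 in place of 5.42, so the lower bounds hold only for the scanner's background; TRPV6 minus TRPV5 was then 0.56 in place of 2.65 and S100G minus CALB1 -6.43 in place of -9.08. TRPV5, below background throughout, gave 0.40 with median scaling, 0.18 with quantile normalization and 0.30 without scaling. Without scaling 2569 genes and 12 genes of the wider list were higher. Leaving out 1 array at a time, TRPV6 minus TRPV5 ranged from 2.26 to 3.07 and S100G minus CALB1 from -9.66 to -8.06. The exact permutation test then gave an adjusted p of 0.0857. Without array 3 labelled non-pregnant and array 4 labelled pregnant they were 2.88 and -8.10 (adjusted p 0.150, same test). Each rests on the smallest exact p that so few arrays can give, so 0.05 could not be reached. Same-numbered arrays correlated at 0.00897, 0.0751, 0.0495 and 0.155 in their deviations from the group means, 3 of 4 arrays being closest to their own number. These values do not decide whether the numbers pair the samples. With the replicate block S100G gave -3.84 (adjusted p 0.00640, limma). The same 2 members were called, and 8046 genes were called in place of 8281. The alternative with a member's other probe was added after seeing the data. Where no cause is named, the cause was not tested. Genes below background have bounds only, and 4 arrays per label limit what can be called.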
